A study of Mus musculus with 29 samples.

Results

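The subunits of the respiratory chain and of ATP synthase were measured in the left ventricle (LV) of Rage-/- and WT mice at 3 ages. A gene was taken as a subunit when the platform annotation gave it a symbol starting with Ndufa, Ndufb, Ndufc, Ndufs or Ndufv, with Sdha to Sdhd, with Uqcr, with Cox4 to Cox8 or with Atp5, and 11 assembly factors and 1 pseudogene that share these letters were left out. This gave 73 genes out of 8189 named genes in the expressed probe set: 34 of complex I, 3 of complex II, 6 of complex III, 14 of complex IV and 16 of complex V. Each gene was read by its brightest probe, since 102 probes covered the 73 genes. Ndufa4 was counted in complex I by its symbol, although its protein is now regarded as a complex IV subunit.

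All mice were female and of the C57BL/6N strain. The Rage-/- mice lack both the full-length and the soluble form of RAGE, a receptor for glycated proteins and for other ligands released in damaged or ageing tissue, and the WT mice carry the intact gene. Young mice were 10 weeks old (5 Rage-/- and 5 WT), MA (middle-aged) mice were 12 months old (4 Rage-/- and 4 WT) and Old mice were 21 months old (6 Rage-/- and 5 WT). Hearts were flushed with PBS before freezing, and total RNA of each LV was hybridized to 1 Illumina mouse array, so that 29 arrays stood for 29 mice. No probe of Ager, the gene of RAGE, was among the 13277 tested probes, so the deletion could not be checked on the level of its transcript.

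Oxidative phosphorylation supplies most of the ATP of a beating heart. Complexes I and II pass electrons from NADH and succinate to ubiquinone, complex III passes them on to cytochrome c, and complex IV hands them to oxygen. Complexes I, III and IV pump protons across the inner mitochondrial membrane, and complex V, the ATP synthase, lets them flow back to make ATP. Most subunits are encoded in the nucleus and are represented here, whereas none of the subunits encoded in mitochondrial DNA was among the tested probes.

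The transcripts of the subunits were among the brightest of the ventricle. Of the 73 genes, 62 lay above the 95th percentile of all probes in raw intensity and 51 above the 99th percentile, and 69 were detected on all 29 arrays. The exceptions were Cox4i2, an isoform best known from lung, which was detected on 8 arrays, Cox6b2, an isoform best known from testis, on 9 arrays, Ndufb11, an accessory subunit of complex I, on 19 arrays, and Sdhd, a membrane anchor of complex II, on 28 arrays. The brightest probes of their complexes were Ndufa13 in complex I with a mean raw intensity of 21896, Sdhc in complex II with 5624, Uqcr10 in complex III with 19948, Cox6a2 in complex IV with 29012 and Atp5b in complex V with 30520. These intensities describe single probes and do not rank the genes by amount. The response of such bright probes can be compressed, which can make differences between mice look smaller.

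The arrays themselves differed in brightness along with the slide. The 6 BeadChips (slides) held the groups unevenly: MA Rage-/- mice lay only on BeadChip 4 and MA WT mice only on BeadChip 2, while 4 of 5 Old WT mice and 2 of 6 Old Rage-/- mice lay on BeadChips 5 and 6. The ratio of bright probes to background was 12.4 to 16.8 on BeadChips 5 and 6 and 2.96 to 8.17 on the others, and its median was 6.09 in Old Rage-/- mice and 15.7 in Old WT mice. Levels are given below as normalized log2 values, and each comparison was fitted in limma with 5 surrogate variables, which are hidden factors estimated from all probes. "Adjusted" levels are those left after the surrogate variables were taken out. They keep the group differences of the fit, so their SD is not the full spread between mice. In whole ventricle, fewer cells of a type and less RNA per cell cannot be told apart. The mean deviation of the measured cardiomyocyte markers, 11 of 12 listed, from their own averages lay between -0.17 and 0.15 log2 units in every mouse. Such a mean can hide opposite changes of single markers, and Myh7 among them is described below. The 5 measured atrial markers ranged between -2.45 and 2.01, so the mice were not alike in atrial transcripts. Neutrophil markers ranged between -1.49 and 3.18 and erythroid markers between -1.77 and 1.92. The erythroid average was 0.49 ± 0.28 in Young Rage-/- and -1.30 ± 0.51 in Young WT mice (SD). It was 1.16 ± 0.80 in MA Rage-/- and 0.57 ± 0.62 in MA WT mice. In Old mice it was 0.02 ± 1.05 in Rage-/- and -0.59 ± 1.04 in WT. The part of these cell types in the results was not tested.

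The promoters of the subunit genes shared short sequences that were more frequent there than over all genes. In the RefSeq promoter windows of the mouse build GRCm38.p6, which run from 250 bases before to 50 bases after a gene's start, 62 of the 73 genes had a window. The letters CGCATGCG, the core site of nuclear respiratory factor 1 (NRF1), a transcription factor known for switching on nuclear genes of the respiratory chain, stood in 9 of the 62 genes (14.5%) and in 2.07% of all 27025 genes. The letters AAGATGGC, on either strand a site of YY1, stood in 10 of 62 (16.1%) against 3.19% of all genes. Of these 10 genes, 7 belonged to complex I and 3 to complex V. AAGATGGC holds the letters ATG, and in most of these genes it lay after the start of the transcript. The letters CAAGGTCA of the oestrogen-related receptors (ERR) stood in 3 genes (4.84% against 1.76%), those of GABPA (CCGGAAGT) in 4 genes (6.45% against 4.31%) and those of SP1 (GGGCGG) in 28 genes (45.2% against 38.2%). Both strands were searched, CGCATGCG reads the same on both, and a match describes letters and not binding.

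The windows of 4 genes with the NRF1 letters in capitals are shown, for Ndufa11 and Cox6a1, whose levels are described below, and for Uqcr11 and Atp5l, which belong to the other complexes. They lie at chr17:56717692-56717721 (plus strand), chr5:115349101-115349130, chr10:80406808-80406837 and chr9:44920965-44920992 (minus strand), in this order.
Ndufa11: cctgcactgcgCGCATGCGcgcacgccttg
Cox6a1: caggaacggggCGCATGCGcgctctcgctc
Uqcr11: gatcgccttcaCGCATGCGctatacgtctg
Atp5l: aaccaataaCGCATGCGcatttccccca

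In the 7 complex I genes with the YY1 letters, these began 23 to 39 bases after the start. The windows of 3 of these genes are shown with the letters in capitals, which begin at 23 in Ndufc1, 25 in Ndufs7 and 30 in Ndufa9. They lie at chr3:51408915-51408944 (minus strand), chr10:80249462-80249491 (plus strand) and chr6:126849097-126849126 (minus strand), in this order.
Ndufc1: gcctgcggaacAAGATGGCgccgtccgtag
Ndufs7: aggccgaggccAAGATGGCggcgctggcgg
Ndufa9: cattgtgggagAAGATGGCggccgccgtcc

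The 250 bases before the start of Ndufa11, the subunit gene that rose with age in Rage-/- mice, are given in full (chr17:56717512-56717761, plus strand), with the NRF1 letters in capitals. None of the other 4 motifs stood in these bases. No match to any of the 5 motifs was found for Atp5c1, the other called subunit gene. Most subunit genes lacked the NRF1 letters, which stood in 9 of 62 genes. A link between these letters and the age differences was not tested.
Ndufa11 upstream: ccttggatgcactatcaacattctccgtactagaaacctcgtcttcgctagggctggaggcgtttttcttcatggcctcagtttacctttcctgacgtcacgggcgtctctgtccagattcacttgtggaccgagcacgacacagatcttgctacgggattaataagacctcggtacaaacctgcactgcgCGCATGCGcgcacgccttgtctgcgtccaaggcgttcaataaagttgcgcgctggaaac

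**Figure D1:**
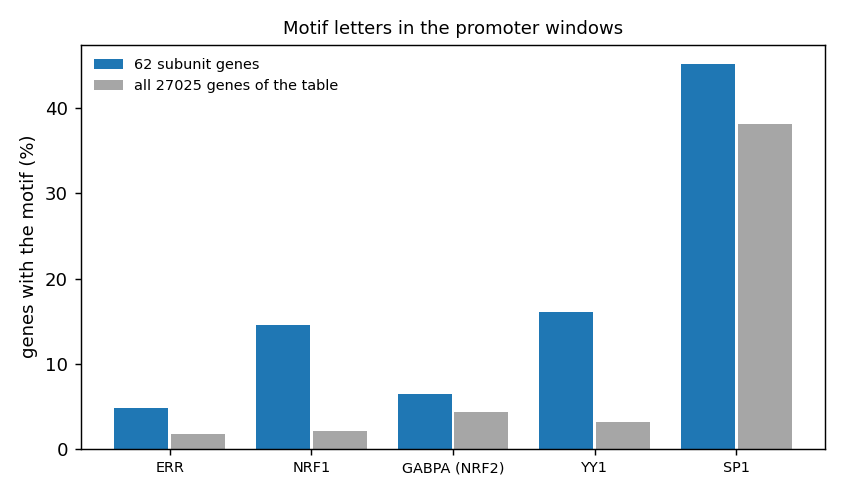
Share of genes (percent, vertical axis) whose promoter window holds each of 5 motifs, for 62 subunit genes (blue) and all 27025 genes of the table (grey). The bars for NRF1 are 14.5% and 2.07%, and those for YY1 are 16.1% and 3.19%.

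Deletion of Rage left the subunit transcripts without a called difference at any age. In Young mice, 0 of 73 genes passed an adjusted p of 0.05 between Rage-/- and WT, where 0.678% of all 13277 probes were called, and in MA mice 0 of 73 passed where 1.9% of probes were called. In Old mice 0 of 73 passed where 0.0527% of probes were called. Without adjustment, p was below 0.05 for 1, 8 and 10 of the 73 genes in Young, MA and Old mice, beside 1264, 2383 and 735 of the 13277 probes. The median difference of the 73 genes was -0.01 in Young, -0.08 in MA and -0.06 in Old mice, with 39, 49 and 51 genes lower in Rage-/- mice, beside 50%, 48.1% and 47.9% of all probes. Without BeadChips 5 and 6, which leaves 1 Old WT mouse, the median in Old mice turned to 0.021 with 30 of 73 genes lower in Rage-/-. The 95% interval of the difference lay within 0.5 log2 units of 0 for 60, 53 and 48 of the 73 genes, and within 1 log2 unit for 73, 70 and 71.

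By complex, the genotype differences were small, and in complexes I, II, IV and V most of them were negative in Old mice. In complex I, 25 of 34 genes were lower in MA Rage-/- than in MA WT mice, with a median of -0.11, and 23 of 34 in Old mice, with a median of -0.06. In Old mice 10 of 14 complex IV genes (median -0.07) and 12 of 16 complex V genes (median -0.13) were lower in Rage-/-. In complex II all 3 measured genes were lower at all 3 ages, with medians of -0.13 in Young, -0.21 in MA and -0.24 in Old mice. None of these genes passed the test. Each MA genotype lay on a BeadChip of its own, and most signs were not stable under the alternatives listed below. The MA medians then ranged up to 0.09 in complex I, -0.05 in II, 0.32 in III, 0.23 in IV and 0.13 in V. In Old mice they ranged up to 0.02 in complex I, 0.03 in II, 0.02 in IV and -0.02 in V.

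Complex II, succinate dehydrogenase, links the citric acid cycle to the chain. Its iron-sulfur subunit Sdhb had log2 levels of 11.91, 11.98, 12.01 and 11.93 in MA Rage-/- mice, against 12.24, 12.07, 11.97 and 12.38 in MA WT mice, so that 1 MA WT mouse lay among the MA Rage-/- mice. In Old Rage-/- mice Sdhb was at 11.72 at the lowest, 12.02 at the median and 12.19 at the highest, against 12.07, 12.24, 12.32, 12.38 and 12.11 in Old WT mice, which overlap. The differences were -0.21 (SE 0.12, adjusted p = 0.365) in MA and -0.24 (SE 0.12, adjusted p = 0.886) in Old mice. Of the membrane anchors, Sdhc differed by -0.04, -0.09 and -0.02 in Young, MA and Old mice, with adjusted p of 0.95, 0.686 and 0.999. Sdhd differed by -0.36, -0.42 and -0.35, with adjusted p of 0.707, 0.452 and 0.978, and 1 Young Rage-/- mouse stood far below the rest at 5.05, where the other 4 lay between 7.86 and 8.71.

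**Figure D2:**
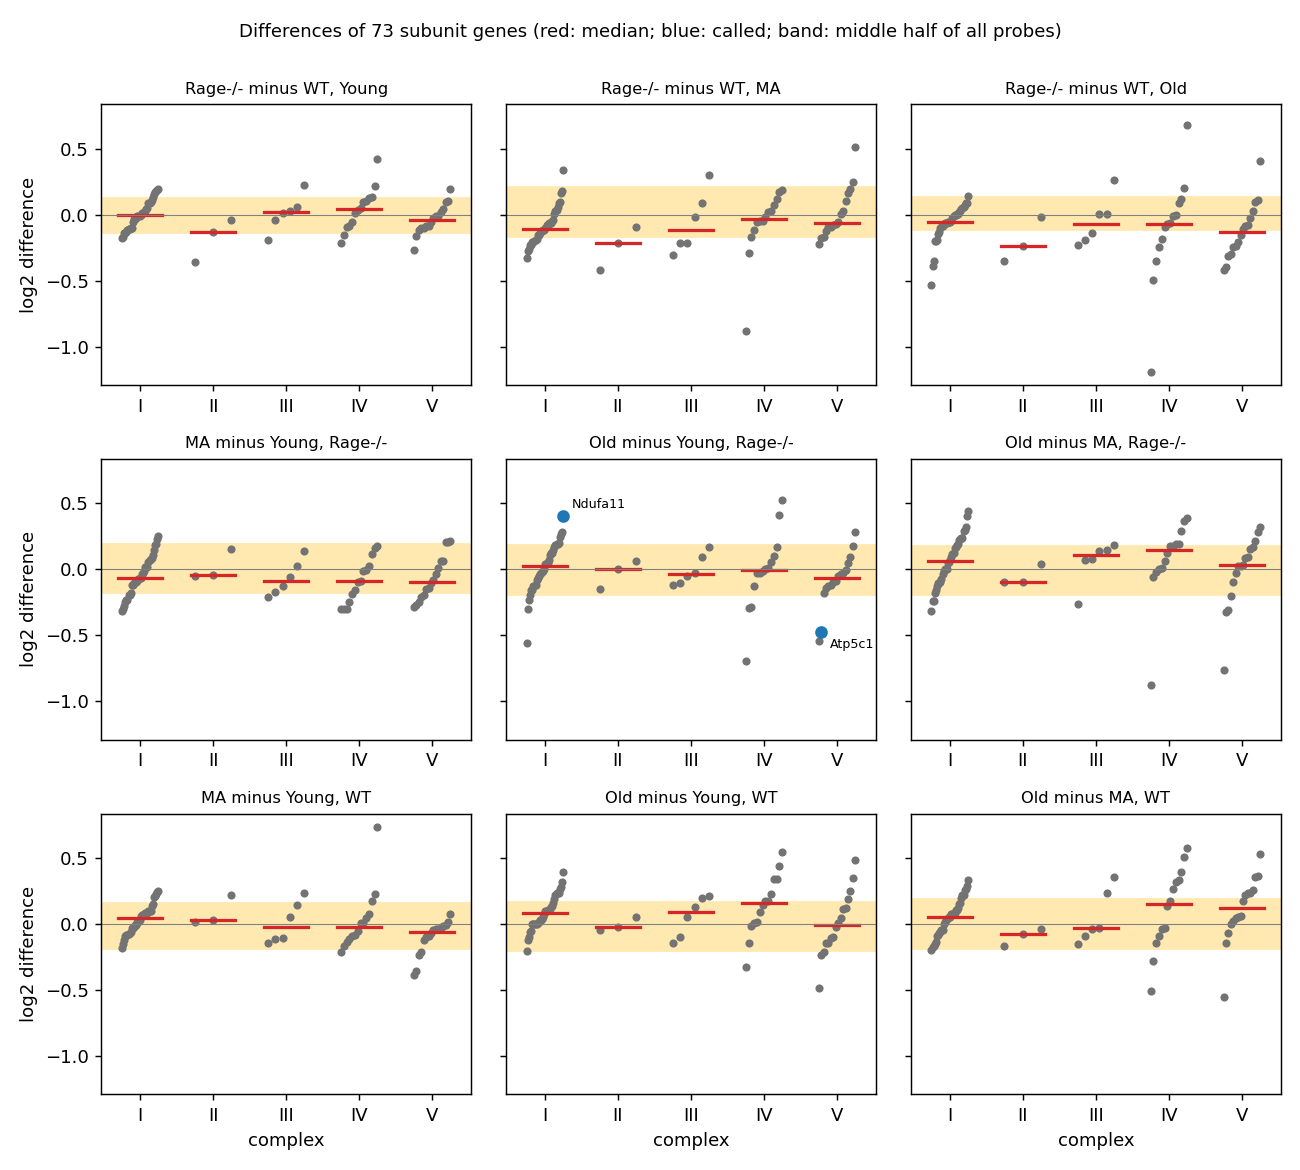
Differences of the 73 genes (log2, vertical axes) by complex (horizontal axes) in 9 comparisons, with a point for each gene, a red line for the median of the complex and a band for the interquartile range of all probes. Only Ndufa11 (0.41) and Atp5c1 (-0.47) in Old minus Young Rage-/- mice are called.

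The genes that came nearest to the threshold between genotypes were small subunits of complexes III and IV, and they are named here after their values were seen, as are the further genes below that are neither called nor part of an isoform pair. Uqcr11, the smallest subunit of the bc1 complex, had 13.64, 13.65, 13.68 and 13.85 in MA Rage-/- mice, against 13.89, 14.01, 14.03 and 14.04 in MA WT mice. The groups did not overlap, and the difference was -0.31 (SE 0.10, adjusted p = 0.113). Cox7b, a small subunit of cytochrome c oxidase, had 8.11, 7.89, 8.24 and 8.29 in MA Rage-/- mice, against 8.40, 8.95, 8.89 and 9.52 in MA WT mice, again with no overlap, and a difference of -0.88 (SE 0.29, adjusted p = 0.106). With the values that the authors normalized, 5 genes were called lower in MA Rage-/- mice, 6.85% of the 73 beside 2.45% of all probes: Uqcr11 (-0.37, adjusted p = 0.00593), Uqcr10 (-0.33, adjusted p = 0.0383), Ndufa10 (-0.31, adjusted p = 0.0391), Cox5a (-0.34, adjusted p = 0.0483) and Atp5g3 (-0.36, adjusted p = 0.0466). Since each MA genotype lay on a BeadChip of its own, genotype and slide could be separated at this age only through the other groups on those slides. With the BeadChip as a fixed block the difference of Uqcr11 was 0.00 (adjusted p = 0.999), and the median of the 73 genes turned to 0.17.

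In Old mice, Cox6c, another small subunit of cytochrome c oxidase, had the largest genotype difference among the 73 genes, -1.19 (SE 0.29, adjusted p = 0.289). One Old Rage-/- mouse was at 9.63, while the other 5 lay between 11.79 and 12.23 and the Old WT mice at 12.43, 12.35, 12.65, 11.99 and 12.87. Without that mouse the difference was -0.49. Ndufb5, an accessory subunit in the membrane arm of complex I, differed by -0.53 (SE 0.17, adjusted p = 0.63), with 9.88 at the lowest, 10.21 at the median and 11.15 at the highest in Old Rage-/- mice, against 10.59, 10.89, 11.03, 11.19 and 11.16 in Old WT mice. The groups overlapped for both genes.

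The genotype difference of no subunit changed detectably with age. In the test of the change between Young and MA mice 0 of 73 genes passed, where 0.105% of all probes were called, and between Young and Old mice 0 of 73 passed, where 0.226% were called. Between MA and Old mice 0 of 73 passed, where 0.151% were called. The count at an unadjusted p below 0.05 was 4, 7 and 5 genes in these tests, beside 1911, 1080 and 1480 of all probes.

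Ageing was followed within each genotype. In Rage-/- mice, 0 of 73 genes were called between MA and Young mice, where 1.36% of all probes were called, and 0 of 73 between Old and MA mice, where 0.00753% were called. Between Old and Young Rage-/- mice 2 of 73 genes were called, 2.74% beside 3.68% of all probes, so that the subunits were called no more often than other genes. In WT mice, 0 of 73 genes were called between MA and Young mice (1.48% of all probes), 0 between Old and Young mice (0.859%) and 0 between Old and MA mice (0.0151%). The counts at an unadjusted p below 0.05 were 3, 12 and 7 genes in Rage-/- mice and 3, 7 and 6 genes in WT mice for MA against Young, Old against Young and Old against MA mice, beside 1946, 2581 and 1161 of all probes in Rage-/- and 2058, 1610 and 1459 in WT mice.

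By complex, the age differences were small and of either sign. Between Old and Young WT mice 27 of 34 complex I genes (median 0.09) and 11 of 14 complex IV genes (median 0.16) were higher, beside 52.2% of all probes that were lower. Between MA and Young WT mice 14 of 16 complex V genes were lower, with a median of -0.06, and between Old and Young Rage-/- mice 12 of 16, with a median of -0.07. Over all 73 genes the median difference between Old and Young was -0.02 in Rage-/- and 0.05 in WT mice. These signs were not stable: without BeadChips 5 and 6 the WT median was -0.030 with 40 of 73 genes lower in Old mice, against 22 in the fit to all mice, and with the BeadChip as a fixed block the Rage-/- median was 0.038.

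Ndufa11, an accessory subunit in the membrane arm of complex I, rose with age in Rage-/- mice. Its level was 12.15 at the lowest, 12.28 at the median and 12.90 at the highest in the 6 Old Rage-/- mice, against 11.54, 11.94, 12.09, 12.13 and 11.85 in the 5 Young Rage-/- mice. Every Old Rage-/- mouse was above every Young Rage-/- mouse, and of the MA Rage-/- mice, at 12.03, 12.11, 12.02 and 12.25, 3 lay within the range of the Young and 1 within that of the Old mice. The difference was 0.41 log2 units (SE 0.11, adjusted p = 0.0444 in limma), a 1.32-fold rise. After adjustment the levels averaged 12.42 ± 0.06 in Old and 12.01 ± 0.12 in Young Rage-/- mice (SD, n = 6 and 5). In WT mice the same gene had 12.02, 12.58, 12.74, 12.81 and 12.45 in Old against 11.51, 12.03, 11.85, 12.06 and 11.94 in Young mice, a difference of 0.28 (SE 0.13, adjusted p = 0.406). In the limma fit without surrogate variables, Ndufa11 was called in WT mice (0.64, adjusted p = 0.00828) and not in Rage-/- mice. The genotype in which it was called thus depended on the surrogate variables. On BeadChip 1, which held both ages, the 4 Old Rage-/- mice lay between 12.15 and 12.34 and the Young Rage-/- mouse at 11.54. Without BeadChips 5 and 6 the difference was 0.37 and no longer passed (adjusted p = 0.311), and with the BeadChip as a fixed block it was 0.69 (adjusted p = 0.0332).

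Atp5c1, the gamma subunit that forms the turning shaft of ATP synthase, fell with age in Rage-/- mice. Its level was 11.91 at the lowest, 13.44 at the median and 13.56 at the highest in Old Rage-/- mice, against 14.01, 13.50, 13.42, 13.61 and 13.39 in Young Rage-/- mice. Before adjustment the groups overlapped, and the 2 Old mice on BeadChip 5, at 12.05 and 11.91, stood apart from the 4 on BeadChip 1. After adjustment the 6 Old Rage-/- mice averaged 12.91 ± 0.11 and the 5 Young Rage-/- mice 13.38 ± 0.12 (SD), without overlap. The adjustment lowered the within-group SD of Atp5c1 from 0.43 to 0.12, so this lack of overlap restates the fit. The difference was -0.47 log2 units (SE 0.11, adjusted p = 0.0203), a 1.39-fold fall. In WT mice it was -0.24 between Old and Young and did not pass, and between Old Rage-/- and Old WT mice it was -0.40 (SE 0.11, adjusted p = 0.538). In the limma fit without surrogate variables, Atp5c1 was called between Old and Young WT mice (-0.94, adjusted p = 0.0137) and not between Old and Young Rage-/- mice. Without BeadChips 5 and 6 the difference between Old and Young Rage-/- mice was -0.11 (adjusted p = 0.809), and with the BeadChip as a fixed block it was -0.55 and did not pass either (adjusted p = 0.111). On BeadChip 1 alone the Old Rage-/- mice lay between 13.43 and 13.56, against 14.01 in the Young Rage-/- mouse.

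**Figure D3:**
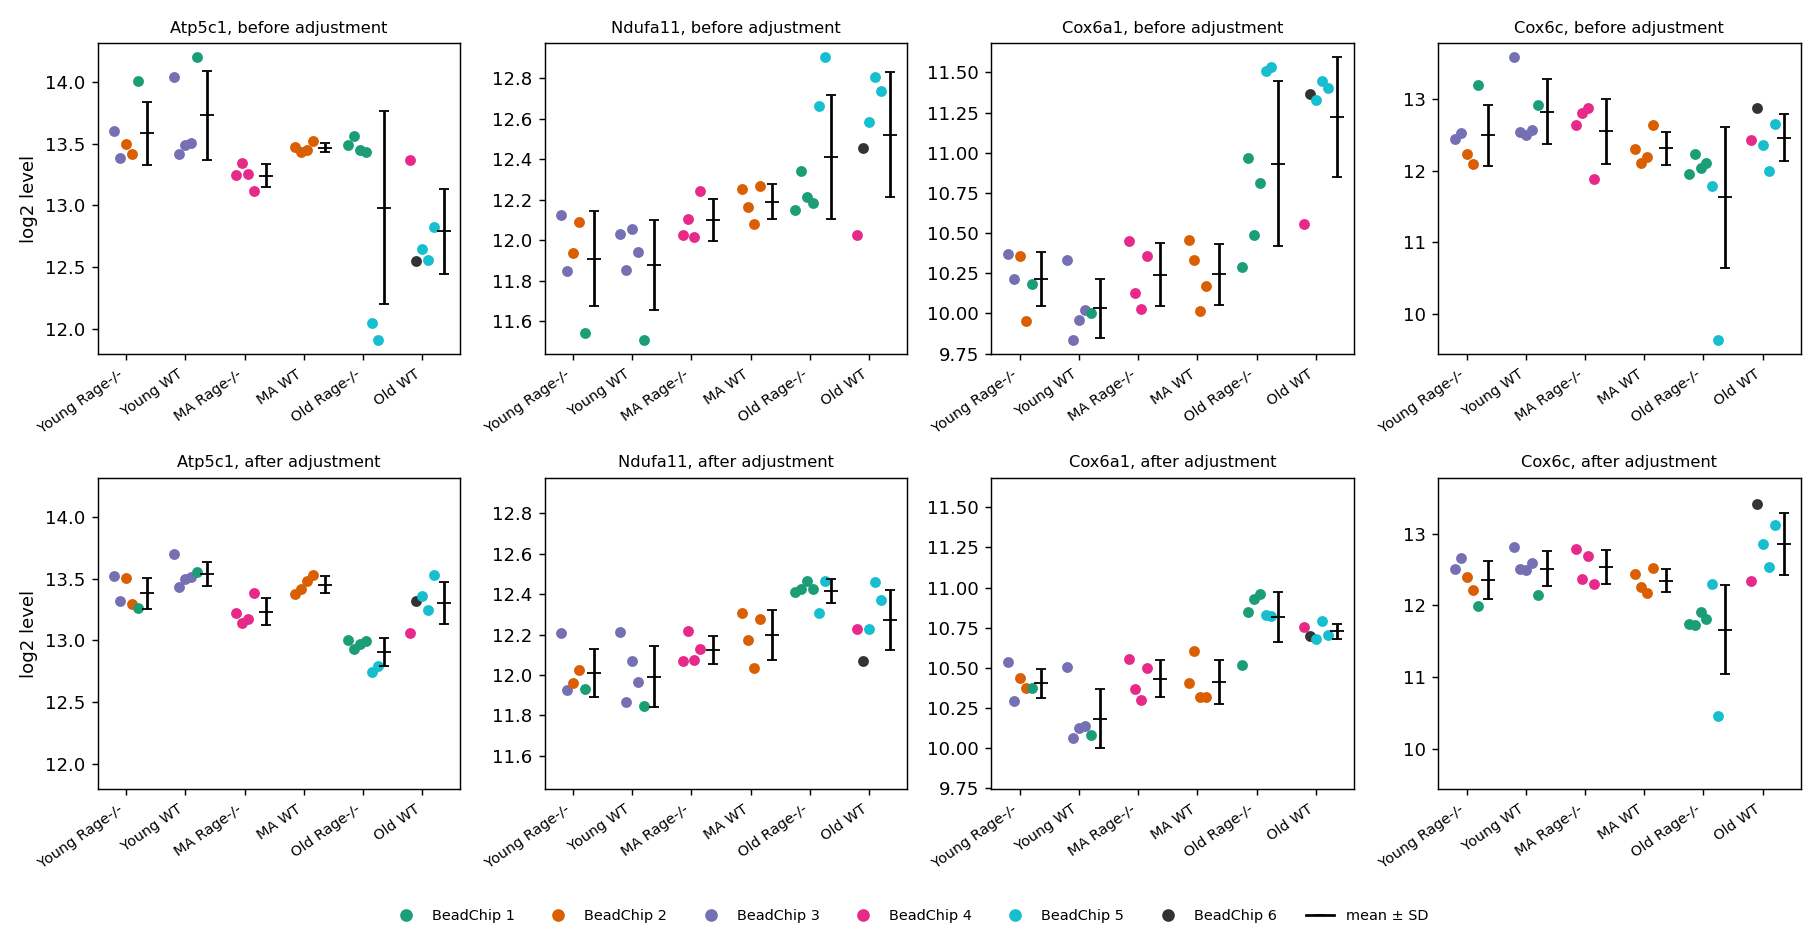
Normalized log2 levels (vertical axes) of Atp5c1, Ndufa11, Cox6a1 and Cox6c by group (horizontal axes), before (top) and after (bottom) adjustment for the surrogate variables, with a point for each mouse coloured by BeadChip and bars for mean ± SD. Old Rage-/- mice on BeadChip 5 are the lowest for Atp5c1 before adjustment, at 12.05 and 11.91, and 1 Old Rage-/- mouse is at 9.63 for Cox6c.

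More subunits were called between Old and Young Rage-/- mice when the values normalized by the authors were used. Of the 73 genes, 11 passed (15.1% beside 8.82% of all probes), 6 higher and 5 lower. Among those higher in Old Rage-/- mice were Ndufa11 (0.41, adjusted p = 0.00185), Cox6a1 (0.41, adjusted p = 0.0026), Ndufc1 (0.37, adjusted p = 0.0125) and Atp5l, a membrane subunit of ATP synthase (0.30, adjusted p = 0.000253). Among those lower were Atp5c1 (-0.49, adjusted p = 0.00292), Ndufb5 (-0.48, adjusted p = 0.0403) and Ndufb10 (-0.35, adjusted p = 0.00531), an accessory subunit of complex I. Both directions were thus found within complex I and within complex V.

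The next gene below the threshold was Cox6a1, and it had the same sign in both genotypes. Cox6a1 encodes the widely expressed form of a regulatory subunit of cytochrome c oxidase, whose heart and skeletal muscle form is Cox6a2. In Rage-/- mice Cox6a1 had 10.29 at the lowest, 10.89 at the median and 11.53 at the highest in Old mice, against 10.18, 10.36, 9.95, 10.37 and 10.21 in Young mice, a difference of 0.41 (SE 0.12, adjusted p = 0.0544). In WT mice it had 10.56, 11.33, 11.40, 11.45 and 11.37 in Old against 10.01, 10.33, 9.83, 9.96 and 10.02 in Young mice, a difference of 0.54 (SE 0.14, adjusted p = 0.0736). The groups did not overlap in WT mice and overlapped in 1 Old Rage-/- mouse. The Old WT mouse at 10.56 was the only one of its group on BeadChip 4, and the Old mice on BeadChips 5 and 6 were the highest. A second, dimmer probe of Cox6a1 differed by 0.60 in WT (adjusted p = 0.0813) and by 0.33 in Rage-/- mice (adjusted p = 0.188). Without BeadChips 5 and 6 the differences of the brighter probe were 0.24 in Rage-/- and 0.34 in WT mice, with adjusted p of 0.649 and 0.674.

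Heart and muscle isoforms were set against the common isoforms within each mouse, as a difference of 2 probes that has no meaning as an amount but can be followed across mice. The probes can differ in brightness, with mean raw intensities of 29012 for Cox6a2 and 1890 for Cox6a1. A compressed response of the brighter probe can change such a difference with the brightness of the array, and its part was not tested. The difference of Cox6a2 minus Cox6a1 was 4.60 ± 0.20 in Young Rage-/- and 4.85 ± 0.25 in Young WT mice, 4.60 ± 0.19 in MA Rage-/- and 4.62 ± 0.24 in MA WT mice, and 3.79 ± 0.65 in Old Rage-/- and 3.08 ± 0.71 in Old WT mice (SD, n = 4 to 6). After adjustment it was 4.35 in Young Rage-/- and 4.66 in Young WT mice, 4.31 in MA Rage-/- and 4.39 in MA WT mice, and 3.91 ± 0.25 in Old Rage-/- and 3.79 ± 0.15 in Old WT mice. The slide moved with it: Old mice on BeadChips 5 and 6 lay between 2.64 and 3.22. On BeadChip 1 the 4 Old Rage-/- mice lay between 3.84 and 4.56, against 4.64 in the Young Rage-/- and 4.93 in the Young WT mouse, and on BeadChip 4 the Old WT mouse had 4.34, against 4.42 to 4.83 in MA Rage-/- mice. In these values the Old mice were the lower ones on both slides, with 1 Young mouse per genotype or 1 Old WT mouse to compare. With the values that the authors normalized, the Old Rage-/- mice on BeadChip 1 had 4.96, 4.25, 5.11 and 4.19. The Young Rage-/- mouse there had 4.71 and the Young WT mouse 4.92, so the ages overlapped. On BeadChip 4 the Old WT mouse then had 4.60, against 4.76 to 5.20 in MA Rage-/- mice. Cox6a2 itself differed between Old and Young mice by -0.03 in Rage-/- (adjusted p = 0.915) and by -0.33 in WT mice (adjusted p = 0.316).

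**Figure D4:**
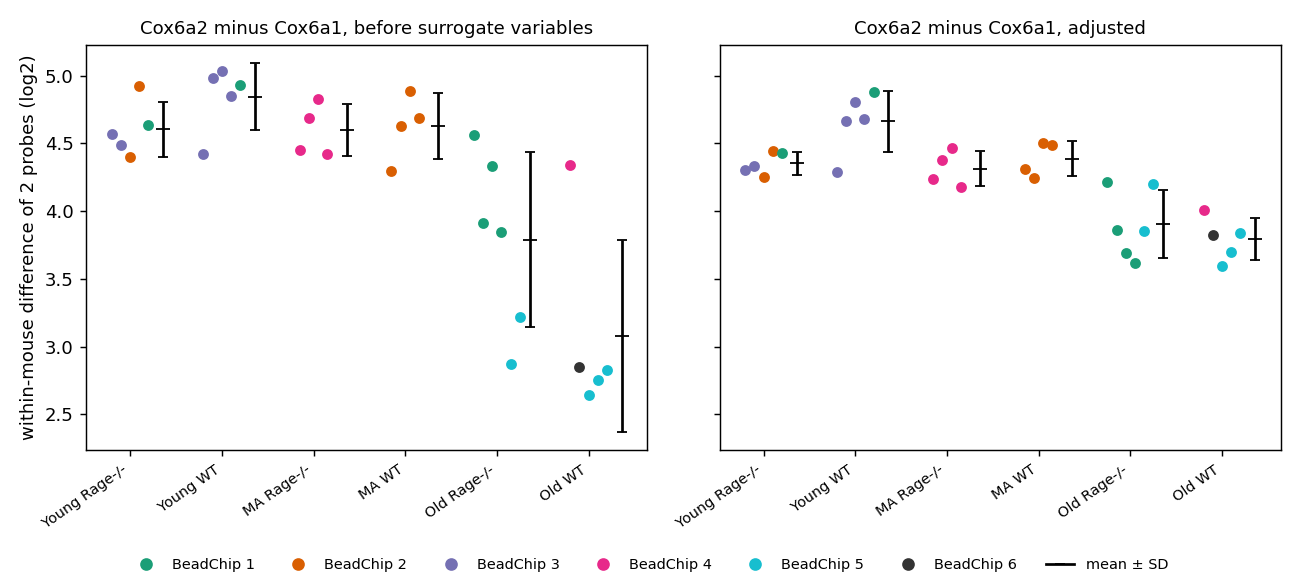
Within-mouse difference of the Cox6a2 and Cox6a1 probes (log2, vertical axis) by group (horizontal axis), before (left) and after (right) adjustment, with a point for each mouse coloured by BeadChip and bars for mean ± SD. The 4 Young and MA groups average 4.60 to 4.85 before adjustment and the Old groups 3.79 (Rage-/-) and 3.08 (WT).

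Other pairs differed between ages as well before adjustment. Cox7a2l is a relative of Cox7a2 known for its part in joining complexes III and IV. Cox7a2l minus Cox7a2 was 2.19 ± 0.52 in Old Rage-/- and 2.04 ± 0.24 in Old WT mice, against 1.40 ± 0.46 in Young Rage-/- and 1.44 ± 0.61 in Young WT mice. After adjustment the same groups had 1.73, 1.48, 1.38 and 1.73, so that the Old group was the higher one in Rage-/- and the lower one in WT mice. Cox7a1, the heart and muscle form, minus Cox7a2, the common form, was 5.57 ± 0.37 in Old Rage-/- and 5.53 ± 0.16 in Old WT mice, against 5.23 ± 0.22 in Young Rage-/- and 5.18 ± 0.30 in Young WT mice. After adjustment the same groups had 5.46, 5.31, 5.18 and 5.21. Cox7a1 differed by 0.58 between Old and MA WT mice (SE 0.16, adjusted p = 0.205) and Cox7a2 by -0.49 between Old Rage-/- and Old WT mice (SE 0.16, adjusted p = 0.63). Atp5g3 minus Atp5g2, 2 genes that encode the same mature ring subunit of ATP synthase, was 3.88 ± 0.48 in Old Rage-/- and 3.58 ± 0.43 in Old WT mice, against 4.09 ± 0.28 and 3.91 ± 0.40 in Young Rage-/- and Young WT mice, which overlap. Cox4i2 and Cox6b2 were near background on most arrays, so their pairs with Cox4i1 and Cox6b1 carry no information on the minor form. Cox8b, the muscle form of another cytochrome c oxidase subunit, differed by 0.01 in Rage-/- and 0.17 in WT mice between Old and Young, with adjusted p of 0.971 and 0.645.

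Averaged over the 73 genes, the level of the chain differed little between groups. The mean deviation from each gene's own average was -0.06 ± 0.06 in Young Rage-/- and -0.03 ± 0.09 in Young WT mice, -0.06 ± 0.03 in MA Rage-/- and -0.01 ± 0.05 in MA WT mice, and -0.01 ± 0.13 in Old Rage-/- and 0.16 ± 0.13 in Old WT mice (log2, SD). After adjustment it was -0.02 ± 0.05 in Old Rage-/- and 0.07 ± 0.04 in Old WT mice, and between -0.06 and 0.00 in the other 4 groups. The 4 Old WT mice on BeadChips 5 and 6 lay between 0.16 and 0.26 and the Old WT mouse on BeadChip 4 at -0.07, while the 2 Old Rage-/- mice on BeadChip 5 were at 0.02 and 0.13. By complex, the Old WT average before adjustment was 0.16 for complex I, 0.28 for complex II, -0.06 for complex III, 0.16 for complex IV and 0.21 for complex V.

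**Figure D5:**
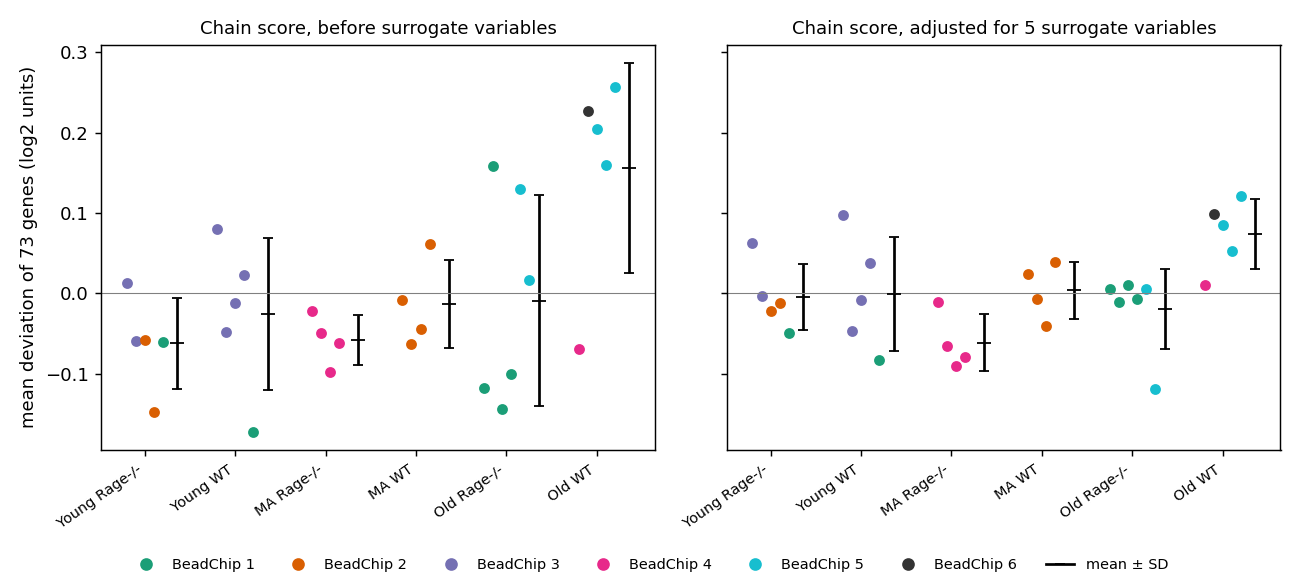
Mean deviation of the 73 genes from their averages over 29 mice (log2, vertical axis) by group (horizontal axis), before (left) and after (right) adjustment, with a point for each mouse coloured by BeadChip and bars for mean ± SD. Old WT mice average 0.16 before and 0.07 after adjustment, and the Old WT mouse on BeadChip 4 is at -0.07 before adjustment.

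Without surrogate variables, many more subunits were called in the age comparisons of WT mice. Between Old and Young WT mice 22 of 73 genes (30.1%) then passed, 17 higher and 5 lower, beside 23.9% of all probes, and between Old and MA WT mice 20 (27.4%), 15 higher and 5 lower, beside 30% of all probes. Of these, 18 genes passed in both. The highest included Atp5pb, of the peripheral stalk of ATP synthase (1.47, adjusted p = 0.00856), Atp5l (1.19, adjusted p = 0.00134) and Ndufc2 of complex I (1.14, adjusted p = 0.00596), and the lowest was Uqcrq of complex III (-1.19, adjusted p = 0.0219), all between Old and Young WT mice. With the BeadChip as a fixed block 0 genes passed in either comparison. The part of the slide in these differences cannot be told apart from that of age for most Old WT mice.

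The subunits differed in how much they varied among mice of a group. The within-group SD had a median of 0.21 log2 units over the 73 genes, with medians of 0.20 in complex I, 0.17 in complex II, 0.19 in complex III, 0.27 in complex IV and 0.31 in complex V, and after adjustment the median was 0.12. It was lowest for Ndufa12 (0.11), an accessory subunit of complex I, and highest for Sdhd (0.74). A gene with several probes did not always give the same sign: in 147 of 348 pairs of a further probe and a comparison the sign was opposite to that of the brightest probe. One further probe was called, a dim probe of Atp5pb at 1.06 between MA and Young Rage-/- mice (adjusted p = 0.0155), where the brightest probe of Atp5pb had 0.07 (adjusted p = 0.88).

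Genes that build, feed or regulate the chain were looked at beside the subunits. Of 42 measured assembly factors, 4 were called between Old and Young Rage-/- mice, where 3.68% of all probes were called. Cox19, a copper-handling factor for cytochrome c oxidase, rose (0.72, adjusted p = 0.00387), while Coa7 (-0.93, adjusted p = 0.00016) and Coa4 (-0.42, adjusted p = 0.0348), both assembly factors of complex IV, and Cox15, which makes heme a for complex IV (-0.78, adjusted p = 0.0407), fell. Coa7 fell in Old against Young WT mice as well (-0.79, adjusted p = 0.0105). Of the 42 factors, 33 had a negative difference between Old and Young Rage-/- mice (median -0.09), beside 51.4% of all probes, and 15 did between Old and Young WT mice (median 0.09), beside 52.2% of all probes.

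In the other lists few genes were called. Of 22 carriers and genes of ubiquinone synthesis, Slc25a5, an ADP/ATP carrier, rose in MA against Young WT mice (0.49, adjusted p = 0.0431), and Coq5, an enzyme of ubiquinone synthesis, fell in Old against Young Rage-/- mice (-0.42, adjusted p = 0.0164). Of 72 proteins of the mitochondrial ribosome, which makes the chain's mitochondrially encoded subunits, Mrpl27 was lower in MA Rage-/- than in MA WT mice (-0.51, adjusted p = 0.0156) and Mrps30 fell in Old against Young Rage-/- mice (-0.35, adjusted p = 0.043). In MA mice 55 of these 72 genes were lower in Rage-/- (median -0.10), beside 48.1% of all probes. Of 56 cytosolic ribosomal proteins, Rps24 fell in Old against Young Rage-/- mice (-0.38, adjusted p = 0.0328). No gene of the citric acid cycle (17 measured), of fatty acid oxidation (17) or among the regulators of mitochondrial genes (19) was called in any of the 9 comparisons within an age or a genotype. Of the citric acid cycle genes, 14 of 17 were lower in Rage-/- than in WT mice both in MA (median -0.14) and in Old mice (median -0.13). Beside this, 48.1% and 47.9% of all probes were lower. The genotypes lay unevenly on the BeadChips at both ages, and the part of the slide in these counts was not tested.

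Some markers of other cell types were called between ages in Rage-/- mice, in the comparison where 3.68% of all probes were called. Of 9 measured macrophage markers, 3 rose between Old and Young Rage-/- mice, the complement genes C1qb (0.61, adjusted p = 0.0438) and C1qc (0.79, adjusted p = 0.0367) and the lipopolysaccharide co-receptor Cd14 (0.96, adjusted p = 0.0135), while 3 of the 9 had negative differences that did not pass. Also higher were 1 of 3 neutrophil markers (Lcn2, 1.89, adjusted p = 0.012), 1 of 8 endothelial markers (Pecam1, 0.80, adjusted p = 0.000816) and 1 of 11 cardiomyocyte markers, the slow myosin heavy chain Myh7 (1.44, adjusted p = 0.0234). The mean deviation of the macrophage markers lay between -0.35 and 0.47 in Old and between -0.97 and 0.17 in Young Rage-/- mice. Their part in the differences of Ndufa11 and Atp5c1 was not tested.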

How the data were processed

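The authors deposited raw bead intensities per probe with a detection column, which is a fraction between 0 and 1 headed as a p-value but holding 1 minus the detection p (exported from GenomeStudio 2011.1), and log2 values made in R 4.0.2 with lumi with VST (a transformation that evens out the variance) and RSN (robust spline normalization). The deposited log2 values had already been restricted to 13277 probes detected at p below 0.01 in at least 25% of the 29 arrays. Raw intensities were background-corrected and quantile-normalized here with neqc (offset 16) and tested in limma 3.58.1 under R 4.3.3 on the same 13277 probes, with a mean for each of 6 groups and the first 5 of 7 surrogate variables. P-values were adjusted by Benjamini-Hochberg over all 13277 probes, and a gene was called below 0.05. Of these probes, 11504 had 1 gene, 6 several and 1767 none in the platform annotation.

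The genes named were the called ones, the isoform pairs, the brightest and dimmest gene of each complex, and others said to be chosen after their values were seen. The 73 genes and the lists were chosen with earlier results of these data known. P-values of the model rest on 1 array per mouse, and the number of arrays limits the precision. Alternatives were the authors' normalized log2 values, other background correction, no surrogate variables, the BeadChip as a block, other detection filters, averaged probes, fits to the compared groups only, a replicate block and leaving out each mouse. They were run for the 73 genes and for counts over all probes, and not for the single genes of the other lists. Protein sequences of the isoforms were not used here.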

Additional observations from a re-analysis of the deposited data

Results flagged for a closer look

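In groups of 4 to 6 mice, 25 of 246 combinations of a group and a measure held 1 mouse far from the others. Complex scores and the levels of named genes were counted. For independent measures chance gives about 5%. Some genes were chosen after their values were seen, and the scores hold named genes, so the count cannot be set against that share. No gene's genotype difference changed with age past the test.

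Old WT replicate 2, the only Old WT mouse on BeadChip 4, stood apart most often. It was the lowest Old WT mouse for the complex I score (-0.033, the others 0.19 to 0.24), Cox6a1 (10.56), Cox7a2l (10.63), Atp5l (13.32) and Cox5b (14.13), and the highest for Cox6a2 (14.90) and Ndufa10 (13.30). Whether the slide accounts for this was not tested.

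Young WT replicate 5, the only Young WT mouse on BeadChip 1, was the lowest of its group for the scores of complex I (-0.24) and complex III (-0.19) and for Cox7a1 (13.71), Atp5k (6.00) and Uqcr11 (13.52), and Young WT replicate 2 for Ndufc2 (10.32). Young Rage-/- replicate 4 was the lowest for Sdhd (5.05) and with it for the complex II score (-1.25), and the highest for Uqcrq (9.08). Young Rage-/- replicate 5 was the lowest for Ndufc1 (12.43).

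Among MA mice, replicate 3 of the Rage-/- group was the lowest for Ndufc1 (12.93), replicate 3 of the WT group for the complex II score (-0.10) and replicate 2 of the WT group for Sdhc (12.30). Among Old Rage-/- mice, replicate 6 was the lowest for Cox6c (9.63), replicate 5 for Atp5b (13.97), while replicate 3 was the highest for Cox6b2 (6.70) and replicate 2 for Atp5g2 (11.80). Old WT replicate 4 was the highest for Sdhc (12.62).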

How the results depend on the processing

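The counts of called subunits stayed at 0 between Rage-/- and WT mice of the Young and Old groups under every alternative run. Elsewhere they moved. With the authors' normalized values they were 5 (Rage-/- against WT, MA), 2 (MA against Young, WT), 2 (Old against Young, WT), 1 (Old against MA, WT), 3 (MA against Young, Rage-/-), 11 (Old against Young, Rage-/-), 1 (Old against MA, Rage-/-), 2 (change of the genotype difference, Young to MA) and 1 (MA to Old). With log2 and quantile normalization and no background correction they were 1 (genotype, MA), 2 (Old against Young, WT), 1 (MA against Young, Rage-/-) and 5 (Old against Young, Rage-/-). Without surrogate variables they were 22 (Old against Young, WT), 20 (Old against MA, WT), 1 (Old against Young, Rage-/-) and 1 (Old against MA, Rage-/-), and in fits to the compared groups only 23, 21 and 0 for the first 3 of these. Uqcrq turned to -1.19 in both WT comparisons of Old mice without surrogate variables. For Old against Young WT mice the count was 2 with the BeadChip as a random block, with detection in 75% of arrays and with averaged probes.

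For Old against Young Rage-/- mice the 2 calls became 0 with the BeadChip as a random block, within BeadChips that hold both ages and without BeadChips 5 and 6, 6 with detection in 75% of arrays, 1 without a filter and 4 with averaged probes. With the BeadChip as a fixed block 2 genes passed, Ndufa11 and Ndufc1, and not Atp5c1. The adjusted p of Atp5c1 ranged over 0.00208 to 0.869 and that of Ndufa11 over 0.00185 to 0.869. Leaving out 1 mouse at a time gave 0 to 4 calls here, 0 to 2 for Old against Young WT mice, 0 to 1 for the genotypes in MA mice (1 without Young WT replicate 2), and, with the higher counts reached without Young WT replicate 5, 0 to 1 for MA against Young and 0 to 3 for Old against MA Rage-/- mice. Atp5c1 was called in 18 and Ndufa11 in 13 of these 29 fits.

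The median of the 73 genes moved with the BeadChip as a fixed block to 0.17 (genotype, MA), 0.18 (Old against Young, WT), 0.20 (MA against Young, Rage-/-), -0.12 (Old against MA, Rage-/-), 0.13 (change of the genotype difference, Young to MA) and -0.31 (MA to Old), and without BeadChips 5 and 6 to -0.053 (Old against MA, WT), 0.018 (change, Young to Old) and 0.13 (MA to Old). By less than the spread between mice, it also changed sign without BeadChips 5 and 6 to 0.021 (genotype, Old) and -0.030 (Old against Young, WT), and with the fixed block to 0.038 (Old against Young, Rage-/-). Further sign changes within that spread occurred under other settings. The cause was not tested.

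Same-numbered mice share only a number: over 38 pairs of same-numbered mice the correlation of deviations had a median of 0.04 (-0.32 to 0.48) and exceeded 0.1 in 15. With the replicate block, 1 gene was called between Old and Young Rage-/- mice (Atp5c1), and no other count changed. Most arrays other than those on BeadChips 5 and 6 had a narrow span between bright probes and background, which limits how small a difference can be seen.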
